A study of Mus musculus with 10 samples.

Results

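NAD is the coenzyme of cellular redox reactions and also a substrate that sirtuins, poly(ADP-ribose) polymerases and the ectoenzyme CD38 break down, so that tissues must keep making it. The heart rebuilds most of its NAD by salvage: NAMPT turns nicotinamide into nicotinamide mononucleotide, the nicotinamide riboside kinases NMRK1 and NMRK2 make the same mononucleotide from nicotinamide riboside, and the NMNAT enzymes turn the mononucleotide into NAD. NMRK2 is the kinase of striated muscle, and its transcript is known to be raised in several forms of cardiomyopathy. The 10 genes described here were Nmrk2, Nmrk1, Nampt, Nmnat1, Nmnat3, Nadk, Sirt1, Sirt3, Parp1 and Cd38. They were chosen by gene symbol for their role in NAD metabolism, with earlier results of these data known. All 10 were among the 13455 genes tested, of 57185 genes with counts.

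Bulk polyA RNA-seq was made from the apical ventricle of 10 male mice, 5 per genotype, with 1 library per mouse. The control mice, MLPKO, lack muscle LIM protein (gene Csrp3), carry floxed RAD alleles without Cre and develop dilated cardiomyopathy. The cRADΔ/Δ-MLPKO mice carry the same alleles plus the MYH6-MerCreMer transgene, a tamoxifen-inducible Cre recombinase active in cardiomyocytes, which deletes RAD (gene Rrad), an inhibitor of the L-type calcium channel. Both groups received tamoxifen at 100 mg/kg at 10 weeks of age and were studied 1 month later; the labels give an age of 16 weeks. RAD deletion and the Cre transgene cannot be told apart, because only cRADΔ/Δ-MLPKO mice have either, and hearts with intact MLP were not analysed here.

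The libraries held between 33457406 and 49965101 counts, with a median of 43738141. Gene-level counts did not check either deletion. Rrad was counted in every mouse (mean 9217 ± 2735 in MLPKO and 7070 ± 1237 in cRADΔ/Δ-MLPKO, SD, n = 5; log2 fold change −0.38, edgeR adjusted p = 0.290). Csrp3 was also counted in every mouse, although all 10 lack MLP, with means of 73420 ± 37900 in MLPKO and 34730 ± 8159 in cRADΔ/Δ-MLPKO (SD, n = 5). Its log2 fold change was −1.08 (edgeR adjusted p = 0.0666, DESeq2 adjusted p = 0.0362). Such counts can come from transcript outside the deleted part. Cardiomyocyte markers were abundant in all mice, with summed normalised counts of 1988696.8 to 2309678.9 in MLPKO and 1491430.4 to 1971118.2 in cRADΔ/Δ-MLPKO. Myh6 was the largest part of these sums, with raw counts of 930220 to 1775257, against at most 361327 for any other of the 6 markers. Of the 6, 5 had a negative and 1 a positive log2 fold change, and 1 was called lower by edgeR, against 1.8% of all genes. Endothelial and smooth muscle or pericyte sums were higher in every cRADΔ/Δ-MLPKO mouse than in any MLPKO mouse, the second of these through Rgs5 (log2 fold change 0.44), since Myh11 and Pdgfrb were at 0.01 and −0.01. The fast skeletal myosins Myh1, Myh2 and Myh4 had 0 to 4 counts. Atrial markers summed to 1013.0 in cRADΔ/Δ-MLPKO mouse 1 and to 92.6 to 258.1 in the other 9 mice.

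The sequence just upstream of the start of Nmrk2, Nmrk1 and Nampt is shown because these genes stand for the entry points of salvage compared below: the muscle kinase, the widely expressed kinase and the nicotinamide enzyme. All 10 genes were matched to RefSeq starts (build GRCm38.p6). Each line gives 250 bases, 5′ to 3′ on the strand of the gene, and capitals mark matches to TATAAA or to the E-box CANNTG.
Nmrk2 (chr10:81202038-81202287, minus strand): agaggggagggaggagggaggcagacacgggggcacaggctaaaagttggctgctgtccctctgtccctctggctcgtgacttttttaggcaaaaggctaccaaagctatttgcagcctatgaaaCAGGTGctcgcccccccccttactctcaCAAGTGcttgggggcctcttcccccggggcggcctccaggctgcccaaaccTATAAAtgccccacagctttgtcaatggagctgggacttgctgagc
Nmrk1 (chr19:18631766-18632015, plus strand): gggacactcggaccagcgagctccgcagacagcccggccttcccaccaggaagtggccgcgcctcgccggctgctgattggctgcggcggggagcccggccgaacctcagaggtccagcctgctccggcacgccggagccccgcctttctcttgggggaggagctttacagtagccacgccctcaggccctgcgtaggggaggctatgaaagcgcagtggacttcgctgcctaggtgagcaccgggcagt
Nampt (chr12:32820085-32820334, plus strand): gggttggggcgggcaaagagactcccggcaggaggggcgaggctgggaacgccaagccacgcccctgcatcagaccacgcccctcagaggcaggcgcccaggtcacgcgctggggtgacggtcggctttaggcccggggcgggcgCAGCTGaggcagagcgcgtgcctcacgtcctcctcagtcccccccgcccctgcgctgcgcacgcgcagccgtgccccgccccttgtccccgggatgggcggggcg
The Nmrk2 window held TATAAA at 46 to 41 bases before the start, a word found in 12.4% of 32851 upstream windows of this length. It also held the E-boxes CAGGTG at 125 to 120 bases and CAAGTG at 97 to 92 bases. E-boxes occurred in 66.2% of all windows. The Nampt window held 1 E-box and the Nmrk1 window held no match. Both strands were also searched for CACGTG, which is itself an E-box, for the CArG box and for the MEF2 element, found in 6.02%, 1.47% and 2.92% of windows; none lay in these 3 windows. In base composition, the Nmrk2 window had 58.8% G or C and 5 CpG pairs, against 69.2% and 21 for Nmrk1 and 75.6% and 27 for Nampt. The median over all windows was 52.4% and 6.

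Nmrk2 had lower counts in cRADΔ/Δ-MLPKO hearts than in MLPKO hearts, without overlap between genotypes. The difference did not pass the adjusted threshold by edgeR, but did by DESeq2, the tool used in the paper (adjusted p = 0.0239). None of the other 9 genes passed it by either tool. Nmrk2 (ENSMUSG00000004939, chr10:81033854-81037888, minus strand, GRCm39) had normalised counts of 1831, 5416, 1452, 1578 and 2387 in MLPKO mice 1 to 5. In cRADΔ/Δ-MLPKO mice 1 to 5 the counts were 1335, 630, 1335, 975 and 944. Every MLPKO mouse lay above every cRADΔ/Δ-MLPKO mouse, the closest being 1452 against 1335, and MLPKO mouse 2 lay far above the rest. The means were 2533 ± 1651 and 1044 ± 298 (SD, n = 5), so that the mean in cRADΔ/Δ-MLPKO was 41.2% of that in MLPKO and the median 53.2%. The log2 fold change was −1.28 with a standard error of 0.35 (edgeR quasi-likelihood test, unadjusted p = 0.00354, adjusted p = 0.0691), which ranked 690 among the genes tested. The spread within MLPKO was also wider, with a coefficient of variation of 65.2% against 28.5%.

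Whether Nmrk2 passed the threshold depended on the tool and on single libraries. DESeq2 gave a log2 fold change of −1.28 with an adjusted p of 0.0239, and limma-voom gave −1.15 with 0.0828. Without MLPKO mouse 2 the edgeR value was −0.80 (SE 0.21, adjusted p = 0.063), and without MLPKO mouse 4 it was −1.41 (adjusted p = 0.0434). Over all alternatives the direction stayed negative. Cardiomyocyte marker sums, of which Myh6 was the largest part, were lower in cRADΔ/Δ-MLPKO by the ranges given above. In bulk tissue fewer cells of a type and less RNA per cell cannot be told apart. In cRADΔ/Δ-MLPKO mouse 1, where atrial markers were high, the Nmrk2 count was 1335, and leaving that mouse out gave −1.38 (edgeR adjusted p = 0.0906). Atcayos, a long noncoding RNA on the opposite strand, shares at least 422 bases of exon with Nmrk2, the largest overlap of any single pair of exons. Its means were 1444 ± 282 in MLPKO and 1172 ± 132 in cRADΔ/Δ-MLPKO (SD, n = 5; log2 fold change −0.30, edgeR adjusted p = 0.201). In MLPKO mouse 2, with the highest Nmrk2 count, Atcayos was 1043, the lowest of the 5 MLPKO mice. The strand setting of the counting is not given in the sources used here, so reads in the shared exon cannot be assigned to either gene.

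**Figure D1:**
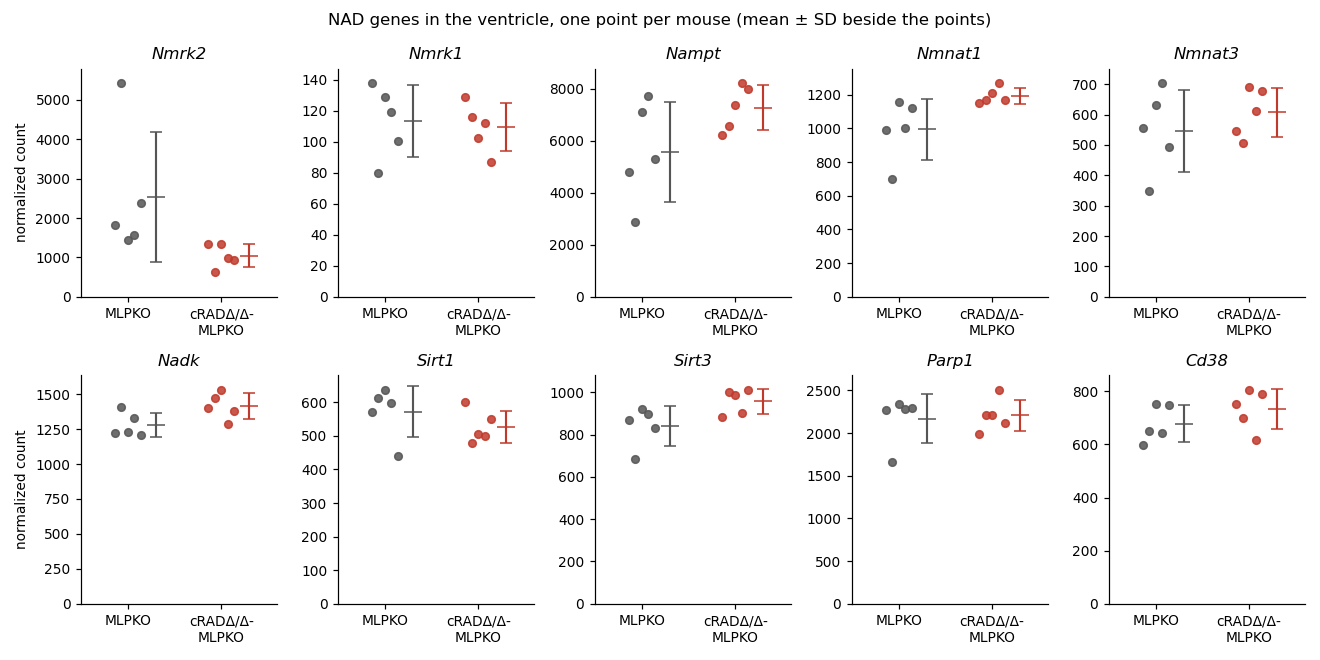
Normalised counts (vertical axes, linear and starting at 0) of the 10 NAD genes, one point per mouse, grey for MLPKO and red for cRADΔ/Δ-MLPKO, with the mean ± SD beside the points. Nmrk2 is the panel in which the genotypes do not overlap, and MLPKO mouse 2, at 5416, lies above all others.

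Nmrk1, the widely expressed riboside kinase (ENSMUSG00000037847, chr19:18608774-18629831), was the least abundant of the genes. Its normalised counts were 138, 79.9, 129, 119 and 100.3 in MLPKO and 129, 116, 103, 112 and 86.9 in cRADΔ/Δ-MLPKO. The genotypes overlapped over most of their range, with a log2 fold change of −0.05 (SE 0.17, edgeR adjusted p = 0.894). Its sign turned without MLPKO mouse 1 (0.03), MLPKO mouse 3 (0.0) or cRADΔ/Δ-MLPKO mouse 5 (0.02). Nmrk1 shares at least 262 bases of exon with Ostf1 on the opposite strand.

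Nampt, the rate-limiting enzyme of salvage from nicotinamide (ENSMUSG00000020572, chr12:32869544-32903368), had counts of 4783, 2884, 7109, 7704 and 5279 in MLPKO. The cRADΔ/Δ-MLPKO counts were 6224, 6554, 7355, 8198 and 7985. MLPKO mice 1, 2 and 5 lay below all cRADΔ/Δ-MLPKO mice, whereas MLPKO mice 3 and 4 lay among them. The means were 5552 ± 1926 and 7263 ± 864 (SD, n = 5), and the log2 fold change of 0.39 (SE 0.21) did not pass the test (edgeR adjusted p = 0.318). Without MLPKO mouse 2 it was 0.22 (adjusted p = 0.392).

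The NMNAT enzymes complete NAD synthesis, NMNAT1 in the nucleus and NMNAT3 in mitochondria. Nmnat1 (ENSMUSG00000028992, chr4:149552026-149569680) had counts of 992, 701, 1156, 1001 and 1120 in MLPKO and 1148, 1168, 1209, 1267 and 1169 in cRADΔ/Δ-MLPKO. Only MLPKO mouse 3, at 1156, reached into the range of the other genotype. The log2 fold change was 0.26 (SE 0.11, edgeR unadjusted p = 0.0392, adjusted p = 0.206), and 0.16 without MLPKO mouse 2. The cRADΔ/Δ-MLPKO mice lay close together, with a coefficient of variation of 3.96% against 18.0% in MLPKO. Nmnat3 (ENSMUSG00000032456, chr9:98169483-98302816) ranged from 349 to 702 around a median of 554 in MLPKO. In cRADΔ/Δ-MLPKO it ranged from 508 to 691 around 611, inside the MLPKO range, with a log2 fold change of 0.15 (SE 0.16, edgeR adjusted p = 0.642).

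Nadk, the cytosolic kinase that makes NADP from NAD (ENSMUSG00000029063, chr4:155646806-155675465), had counts of 1223, 1408, 1232, 1330 and 1210 in MLPKO. In cRADΔ/Δ-MLPKO they were 1399, 1474, 1528, 1286 and 1380. The ranges overlapped, although 4 of 5 cRADΔ/Δ-MLPKO mice exceeded 4 of 5 MLPKO mice. The log2 fold change was 0.14 (SE 0.07, edgeR unadjusted p = 0.0495, adjusted p = 0.231).

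Of the genes chosen, Sirt3, Sirt1, Parp1 and Cd38 encode enzymes that consume NAD, and their differences were small and within overlapping ranges. Sirt3, the main mitochondrial deacetylase (ENSMUSG00000025486, chr7:140443577-140462311), had counts of 868, 685, 923, 896 and 832 in MLPKO and 886, 1002, 987, 905 and 1009.7 in cRADΔ/Δ-MLPKO. Its log2 fold change was 0.19 (SE 0.08, edgeR unadjusted p = 0.0434, adjusted p = 0.217), and 0.12 without MLPKO mouse 2. Sirt3 shares at least 470 bases of exon with Ric8a and at least 356 with Psmd13, both on the opposite strand. Psmd13 was lower in cRADΔ/Δ-MLPKO without overlap, with a log2 fold change of −0.26 (edgeR unadjusted p = 0.00231, adjusted p = 0.0608). The part of these neighbours in the sirtuin counts was not tested. Sirt1, a nuclear deacetylase (ENSMUSG00000020063, chr10:63154581-63217483), had a median of 599 in MLPKO, with mice from 441 to 636, and of 506 in cRADΔ/Δ-MLPKO, with mice from 480 to 600. The cRADΔ/Δ-MLPKO values all fell inside the MLPKO range, with a log2 fold change of −0.12 (SE 0.10, edgeR adjusted p = 0.56). It shares at least 707 bases of exon with Herc4 on the opposite strand, which had a log2 fold change of −0.37 (edgeR unadjusted p = 0.00517, adjusted p = 0.0799).

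Parp1, the DNA-damage-activated polymerase (ENSMUSG00000026496, chr1:180396443-180431307), had counts of 2268, 1666, 2344, 2282 and 2296 in MLPKO and ranged from 1993 to 2501 in cRADΔ/Δ-MLPKO. The other 4 MLPKO mice lay close together, with 4 of the cRADΔ/Δ-MLPKO mice below them and mouse 4 above. The log2 fold change was 0.02 (SE 0.10, edgeR adjusted p = 0.92), and its sign turned without MLPKO mouse 2 (−0.06) or cRADΔ/Δ-MLPKO mouse 4 (−0.02). Cd38, the ectoenzyme that hydrolyses NAD and is found on endothelial and immune cells (ENSMUSG00000029084, chr5:44025875-44069717), ranged from 598 to 753 in MLPKO and from 619 to 804 in cRADΔ/Δ-MLPKO. Its log2 fold change was 0.11 (SE 0.09, edgeR adjusted p = 0.537). All 5 macrophage markers and all 4 endothelial markers had positive log2 fold changes, with medians of 0.46 and 0.23. Each had an edgeR unadjusted p under 0.05, against 21.6% of all genes, but none passed the adjusted threshold. Macrophage sums were 3529.5 to 5074.7 in MLPKO and 4424.9 to 7525.4 in cRADΔ/Δ-MLPKO. The part of macrophages and endothelial cells in the Cd38 value was not tested.

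As a group, the 10 genes gave 0 calls by edgeR at an adjusted p under 0.05, against 2.74% of all genes tested in either direction (1.8% lower and 0.944% higher). At an unadjusted p under 0.05 there were 4, Nmrk2 with a negative and Nmnat1, Nadk and Sirt3 with a positive log2 fold change, against 21.6% of all genes. DESeq2 called 1, Nmrk2, against 9.65% of all genes. The genotypes did not overlap for 1 of the 10, against 6.61% of all genes. Of the 10, 7 had a positive and 3 a negative log2 fold change, and the median was 0.13, against 0.01 over all genes tested. The count of calls over all genes itself depended on single libraries, from 47 without MLPKO mouse 5 to 826 without MLPKO mouse 4, where Nmrk2 was the 1 member called. MLPKO mouse 2 was the lowest of all 10 mice for 6 of the genes, Nmrk1, Nampt, Nmnat1, Nmnat3, Sirt3 and Parp1, and the highest for Nmrk2.

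Levels were compared between genes per kilobase of exon, with the exons of all annotated transcripts of a gene joined. In MLPKO, Nmrk2 had a mean of 1150 ± 750 normalised counts per kb and Nampt of 1050 ± 363 (SD, n = 5), with overlapping ranges. The order of these means rested on MLPKO mouse 2, at 2458 for Nmrk2 and 544 for Nampt. Without it the means were 822 and 1172, the medians over all 5 mice were 831 and 995, and Nmrk2 was above Nampt in 2 of the 5, mice 2 and 5. In cRADΔ/Δ-MLPKO, Nampt was first at 1370 ± 163 and Nmrk2 second at 474 ± 135, and their ranges did not overlap, whereas the Nmrk2 range of 286 to 606 took in that of Nmnat1, 358 to 395. The order below them began with Nmnat1 (310 ± 55.8 in MLPKO and 372 ± 14.7 in cRADΔ/Δ-MLPKO) and Parp1 (298 ± 38.9 and 303 ± 25.6). Nadk and Cd38 came next, with overlapping ranges in both genotypes, at 157 ± 10.5 and 152 ± 15.5 per kb in MLPKO. Sirt1 and Sirt3 also overlapped in both genotypes, at 101 ± 13.5 and 95.7 ± 10.6 in MLPKO, followed by Nmnat3 at 64.2 ± 15.9. Nmrk1 was lowest in both genotypes, with 14.1 to 24.3 per kb in MLPKO mice and 15.4 to 22.7 in cRADΔ/Δ-MLPKO mice, below the range of every other gene. The joined exon length can include exons not used in heart, which lowers the value of a gene such as Nmnat3, with 8502 bases, relative to Nmrk2, with 2203.

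**Figure D2:**
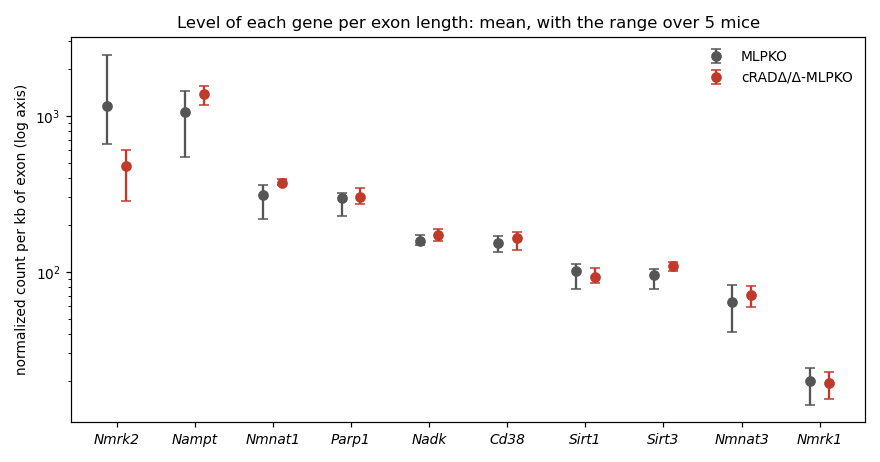
Normalised count per kilobase of exon (vertical axis, logarithmic) for each gene, in grey for MLPKO and red for cRADΔ/Δ-MLPKO. Points are means and bars the range over 5 mice. Nmrk2 and Nampt have the highest means in both genotypes and Nmrk1 the lowest. The ranges of Nmrk2 and Nampt overlap in MLPKO, and those of Nmrk2 and Nmnat1 in cRADΔ/Δ-MLPKO.

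Ratios within a library do not depend on how libraries are scaled, so the balance of the entry points was also read as log2 ratios of counts, not divided by length. The Nmrk2 to Nampt ratio was −1.39, 0.91, −2.29, −2.29 and −1.15 in MLPKO and −2.22, −3.38, −2.46, −3.07 and −3.08 in cRADΔ/Δ-MLPKO. MLPKO mouse 2 was the only library with more counts for Nmrk2 than for Nampt, and cRADΔ/Δ-MLPKO mouse 1 reached into the MLPKO range. The mean differed by −1.60 on the log2 scale, a 3.04-fold lower ratio in cRADΔ/Δ-MLPKO (two-sided exact permutation test, p = 0.0238, adjusted over 3 ratios p = 0.0357). The Nmrk2 to Nmrk1 ratio was 3.73, 6.07, 3.49, 3.72 and 4.57 in MLPKO and 3.37, 2.44, 3.69, 3.11 and 3.43 in cRADΔ/Δ-MLPKO, overlapping through mouse 3 of each genotype. Its mean differed by −1.11, a 2.15-fold lower ratio (exact permutation p = 0.0159, adjusted p = 0.0357). As a difference of medians it was −0.36, which did not pass after adjustment (exact permutation p = 0.0476 before it), and the same held for the Nmrk2 to Nampt ratio, at −1.69. Both ratios hold Nmrk2 and are not independent of each other. Their genes were chosen with earlier results of these data known, and ratios of other genes were not computed. The adjustment covers these 3 ratios alone, so it is not a pass of the threshold over all genes. Without MLPKO mouse 2 the differences were −1.07 (exact permutation p = 0.0317) and −0.67 (p = 0.0397), and neither passed after adjustment over the 3 ratios, nor did either without any 1 of the 5 cRADΔ/Δ-MLPKO mice. The Nmnat1 to Nmnat3 ratio, 0.88 ± 0.25 in MLPKO and 0.98 ± 0.18 in cRADΔ/Δ-MLPKO (SD, n = 5), differed by 0.10 (exact permutation p = 0.516).

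**Figure D3:**
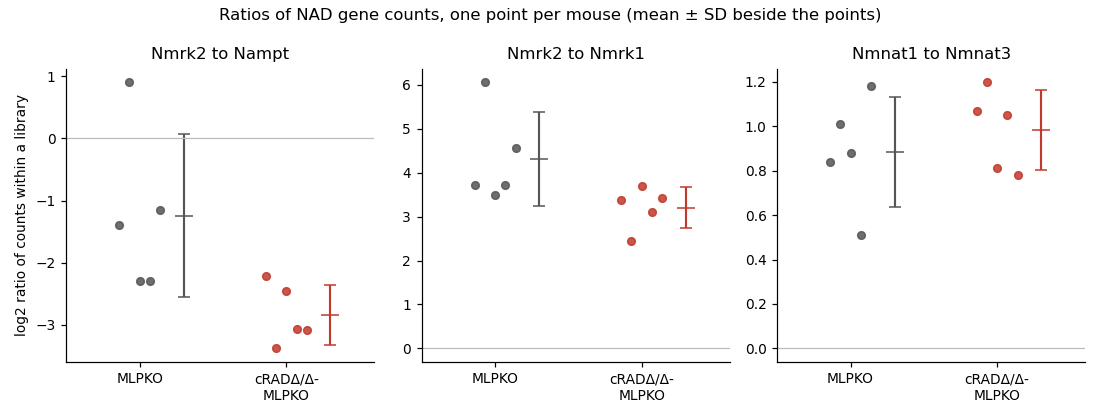
Log2 ratio of counts of 2 genes within each library (vertical axes), one point per mouse, grey for MLPKO and red for cRADΔ/Δ-MLPKO, with the mean ± SD beside the points. The Nmrk2 to Nampt ratio is above 0 in MLPKO mouse 2 alone, and the ranges of the genotypes overlap in all 3 panels.

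Around these genes, a wider list of 60 genes of NAD synthesis, NADP synthesis, carriage and repair, nicotinamide clearance, sirtuins, ADP-ribosylation and NAD glycohydrolases was read from the same fit, with 52 of them tested. Of these, 2 passed the adjusted threshold by edgeR, which is 3.85% against 2.74% of all genes in either direction. Both were lower in cRADΔ/Δ-MLPKO (against 1.8% of all genes called lower), and 0 passed it higher, where 5 had an unadjusted p under 0.05. At an unadjusted p under 0.05 there were 11 in all, 21.2% of the list against 21.6% of all genes. DESeq2 called 4 (Nmrk2, Nudt13, Parp3 and Parp9), all of them lower, which is 7.69% against 9.65%. The genotypes did not overlap for 3, which is 5.77% against 6.61%. These last 3 shares were below those of all genes. The edgeR share rested on 2 genes, too few to set it apart from that of all genes. The median log2 fold change was 0.04, with 29 genes positive and 23 negative.

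Parp3, a mono-ADP-ribosyltransferase of DNA break repair, fell from counts of 3253, 3313, 3553, 2821 and 3151 in MLPKO to 2625, 2022, 2377, 2251 and 2116 in cRADΔ/Δ-MLPKO. All MLPKO mice lay above all cRADΔ/Δ-MLPKO mice, with a log2 fold change of −0.50 (SE 0.08, edgeR adjusted p = 0.0173). Nudt13, a mitochondrial nudix hydrolase that cleaves NADH and NADPH, fell from 1383, 1260, 1336, 1131 and 1438 to 1010.5, 988, 853, 897 and 991. Again the genotypes did not overlap, with a log2 fold change of −0.47 (SE 0.08, edgeR adjusted p = 0.0175). Each call was lost without 1 mouse: Parp3 without cRADΔ/Δ-MLPKO mouse 5 (adjusted p = 0.0572) and Nudt13 without MLPKO mouse 5 (0.0538). Without MLPKO mouse 2 both still passed, at −0.49 (edgeR adjusted p = 0.02) and −0.48 (0.0184).

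By role, the salvage and Preiss-Handler genes held 11 tested genes, 6 with positive and 5 with negative log2 fold changes and none called by edgeR, with 2 at an unadjusted p under 0.05. Their extremes were Nmrk2 and Nampt, and after Nampt came Naprt, the first enzyme of the Preiss-Handler route from nicotinic acid, at 0.36 (SE 0.19, edgeR adjusted p = 0.290). Of the de novo route from tryptophan 3 of 9 genes were counted enough to be tested, and none was called by edgeR, with 0 at an unadjusted p under 0.05. Kmo, kynurenine 3-monooxygenase, had the highest log2 fold change of the list, 0.95, but on counts of 2 to 43 per library and with a standard error of 0.56 (edgeR adjusted p = 0.352). The 7 sirtuins gave no edgeR call, with 2 positive and 5 negative, and 1, Sirt3, at an unadjusted p under 0.05. Of 19 genes of ADP-ribosylation 11 were positive and 8 negative, and Parp3 was the 1 called by edgeR, 5.26% against 2.74% of all genes. At an unadjusted p under 0.05 there were 5, which is 26.3% against 21.6%. Parp9, named after its values were seen as a DESeq2 call, had a log2 fold change of −0.32 (edgeR adjusted p = 0.0925, DESeq2 adjusted p = 0.0382).

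**Figure D4:**
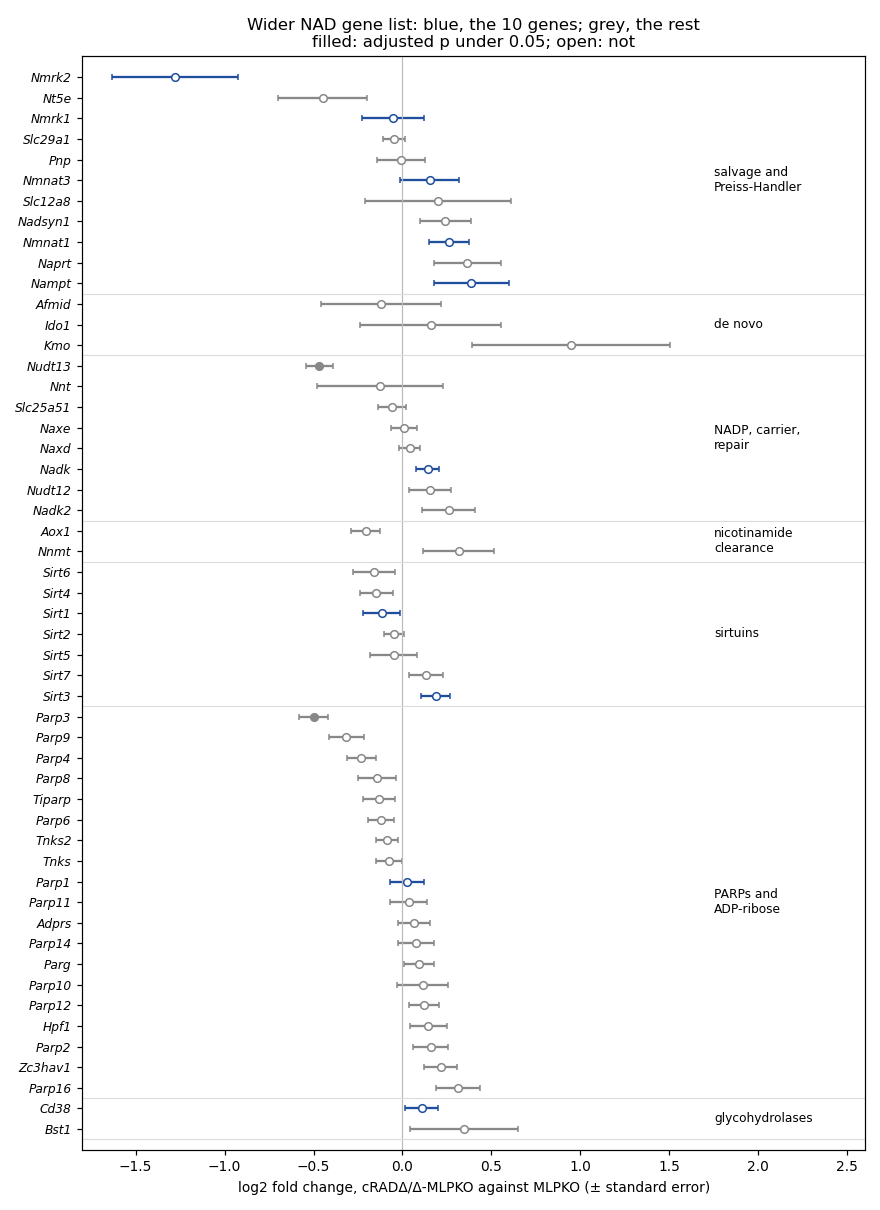
Log2 fold change of cRADΔ/Δ-MLPKO against MLPKO (horizontal axis, with standard error) for the 52 tested genes of the wider NAD list, grouped by role, with the 10 genes in blue. Filled points, Nudt13 and Parp3, passed an adjusted p under 0.05. Nmrk2 has the most negative value and a wide error, and most other genes lie near 0.

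The genes whose log2 CPM (counts scaled to library size) was most like that of Nmrk2 across the 10 mice were found by Pearson correlation among 8535 genes, as a description without a test, since the mice share 2 genotypes and 10 libraries. They were Clu (r = 0.96), Atoh8, Slc7a5 and Usp53 (0.95 each), and Scai, Actn1, Bltp3b, Cltb, Rock2 and Des (0.94 each). Their Spearman rho ran from 0.79 for Actn1 to 0.98 for Usp53 and Des, the latter encoding desmin, the intermediate filament of muscle. The most opposite were Dut, Mmp15 and Slc31a2 (r = −0.97 each), Smtn (−0.96) and St6galnac6 (−0.95). Without MLPKO mouse 2, the r of the 10 most alike genes was 0.85 to 0.91, and 1 of them remained among the 10 highest. With genotype means removed, 3 of the 10 remained. Of these 15 genes, Rock2 (log2 fold change −0.56, edgeR adjusted p = 0.0343) and Des (−0.78, 0.0247) also passed the test between genotypes.

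**Figure D5:**
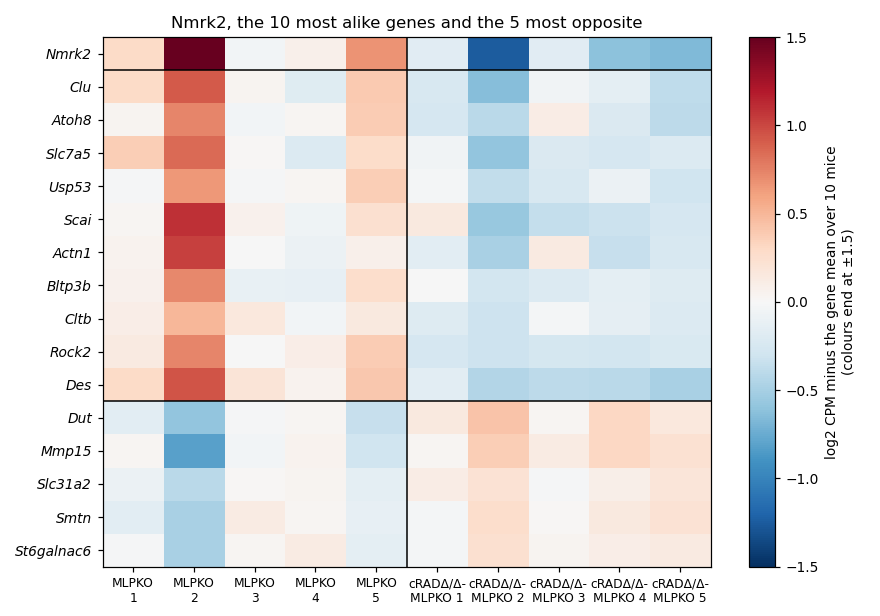
Log2 CPM minus the mean of each gene over 10 mice (colour, ending at ±1.5), for Nmrk2, the 10 genes most like it and the 5 most opposite, with one column per mouse. MLPKO mouse 2 is the highest mouse for Nmrk2, and beyond the end of the colour scale, and that column is also the strongest for each of the genes listed with it, which had r from 0.94 to 0.96.

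Among the NAD genes, Sirt3 (r = −0.92), Nampt and Nmnat1 (−0.84 each) ran most opposite to Nmrk2 over the 10 mice. Without MLPKO mouse 2 these were −0.80, −0.55 and −0.53. Parp1, at −0.62 over all mice, was at 0.10 without that mouse. Genes of ventricular wall stress and the fetal programme ran with Nmrk2, with r of 0.85 for Myh7, the slow myosin heavy chain, 0.84 for Ankrd1, 0.82 for Acta1, 0.70 for Nppa and 0.63 for Nppb. With MLPKO mouse 2 left out these were 0.80, 0.73, 0.75, 0.47 and 0.23, and with genotype means removed 0.70, 0.64, 0.60, 0.58 and 0.51. By r over all mice these genes ranked 271, 334, 388, 975 and 1299 among the genes compared, so many others ran more closely with Nmrk2. All 5 had negative log2 fold changes and 3 passed the edgeR test (Myh7 −1.23, Ankrd1 −1.27 and Acta1 −1.52), against 1.8% of all genes called lower. The paper had already named these 5 as down-regulated in the same libraries, so their share of calls is not an independent result. MLPKO mouse 2 had the highest count of the 10 mice for Myh7 (55494), Ankrd1 (284142) and Acta1 (789721), as it had for Nmrk2. Csrp3, read above as a genotype check, had r of 0.90 with Nmrk2 over all mice and 0.77 without MLPKO mouse 2.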

How the data were processed

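Reads of 10 libraries were checked with FastQC, aligned to GRCm39 with STAR and counted per gene with featureCounts, per the labels and the methods of the study; the authors deposited whole-number counts per gene, not normalised. Settings for strand and for read pairs are not given in the sources used here. Of the counts from 1 to 20, between 73.7% and 80.3% per library were even, so counting error is not that of single reads. The table held 60676 genes, of which 57185 had values.

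A gene entered the fit when 6 or more of the 10 libraries counted it above 10, and predicted genes (Gm or Rik symbols) were left out, leaving 13455. These were tested with edgeR 4.0.16 (TMM, quasi-likelihood, Benjamini-Hochberg, adjusted p under 0.05) in R 4.3.3. DESeq2 1.42.0, limma 3.58.1, other scalings and filters, a replicate block and leaving out each mouse were alternatives. Of these, DESeq2 is the tool that the paper used. On simulated data with 200 changed genes among 13455, edgeR recovered 85 of 100 changed 2-fold and 95 of 100 changed 4-fold, with 5 false calls, and DESeq2 recovered 90 and 98, with 27 false calls. The simulated counts followed the spread that edgeR estimated, without an outlying mouse. They therefore do not give the recovery or false calls of either tool in the real libraries. Normalised counts are counts divided by TMM-scaled library size, at the mean library size. Ratios used counts plus 0.5 and a two-sided exact permutation test, whose smallest p with 5 against 5 mice is 0.00794. Gene positions and exon lengths came from GENCODE M39 (GRCm39) and upstream sequences from RefSeq (GRCm38.p6).

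Depth was 33457406 to 49965101 counts per library. No 2 libraries of the same genotype agreed within sampling noise. The difference of their counts, as chi-square per gene, was 86.6 to 182 for pairs with MLPKO mouse 2 and 26.2 to 82.1 for the other pairs. The library of MLPKO mouse 2 was also the shallowest, at 33457406 counts. Named genes were the 10 members, the genes of the wider list that passed the test, did not overlap or had the 3 largest changes in each direction, the 10 genes most like Nmrk2 and the 5 most opposite, Rrad and Csrp3, and the defining cell type markers. The genes of ventricular wall stress and the fetal programme, which the paper named as down-regulated in these libraries, were added to these. The members and lists were chosen with earlier results of these data known.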

Additional observations from a re-analysis of the deposited data

Results flagged for a closer look

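Among 30 groups of 5 mice (15 quantities in each genotype), 2 held a mouse far from the other 4 by Dixon's test, where chance flags about 1 in 20 groups. The normalised Nmrk2 count of MLPKO mouse 2, 5415.9, lay far above those of the other MLPKO mice, with a gap of 0.764 of the range of the group against a critical value of 0.71. The normalised Parp1 count of the same mouse, 1666.4, lay far below the others, with a gap of 0.888.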

How the results depend on the processing

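The Nmrk2 log2 fold change was negative under every alternative run. It passed the threshold with DESeq2 (−1.28, adjusted p = 0.0239) and without MLPKO mouse 4 (edgeR adjusted p = 0.0434). On log2 CPM alone the difference was −1.14 (exact permutation p = 0.00794, not adjusted over genes). That p is the smallest possible and follows from the lack of overlap between genotypes, so it is not a further pass of the threshold. The range of the fold change on leaving out 1 mouse was −1.42 to −0.80, with edgeR adjusted p from 0.0434 to 0.149. Other tools and settings are read against 369 genes called. DESeq2 called 1298 genes, 1 of the 10 NAD genes and 4 of the wider list; leaving out 1 mouse gave 47 to 826, 0 to 1 and 1 to 4. All-gene counts moved by over 1.5 times without MLPKO mouse 1, 4 or 5 or cRADΔ/Δ-MLPKO mouse 2, 3, 4 or 5. Upper-quartile scaling gave 207 lower and 175 higher calls, against 242 and 127. The Nmrk1 fold change turned positive without MLPKO mouse 1 (0.03), MLPKO mouse 3 (0.0) or cRADΔ/Δ-MLPKO mouse 5 (0.02), in a range of −0.15 to 0.03, and that of Parp1 turned negative without MLPKO mouse 2 (−0.06) or cRADΔ/Δ-MLPKO mouse 4 (−0.02), in a range of −0.06 to 0.06. With medians, the differences of the Nmrk2 to Nampt and Nmrk2 to Nmrk1 ratios were −1.69 and −0.36 (exact permutation p = 0.0476 each), which did not pass after adjustment; leaving out 1 mouse gave −1.87 to −1.07 and −1.31 to −0.67. Of the 10 genes most like Nmrk2, 3 remained with genotype means removed and 1 without MLPKO mouse 2. Mean levels per kb without MLPKO mouse 2, chosen after seeing the data, were 822 for Nmrk2 and 1172 for Nampt in MLPKO. The causes were not tested. Mouse numbers did not pair the mice: deviations of same-numbered mice correlated at 0.0251, 0.066, 0.0971, 0.152 and −0.0443, and 2 of 5 numbers correlated best with themselves. With the replicate block, 281 genes were called, none of the 10 NAD genes among them; Nmrk2 was at −1.10 (adjusted p = 0.151), and the 2 ratios at −1.60 (exact p = 0.0625, the smallest that 5 pairs allow) and −1.11 (exact p = 0.125). Counts of 2 to 43 limit Kmo.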
